A study of Mus musculus with 16 samples.

Results

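Macrophages stimulated with LPS lost ATAC-seq peaks as well as gaining them, and 973 regions lost their peak whether or not the cells had first received the LXR agonist T0. These 973 members held a peak in unstimulated cells with vehicle (Veh) and in unstimulated cells with T0, but none with LPS alone (LPS) or with T0 before LPS (T0-LPS). They were weak peaks, which the rule favours, in introns and between genes, 83.2% of them further than 1 kb from a transcription start site (TSS). Compared with equally remote regions that kept a peak in all 4 lists, a smaller share of the members carried AP-1, C/EBP or NF-kB motifs in their central 200 bp. The intervals of the shares with PU.1 or RUNX motifs overlapped. The restriction to remote regions was chosen after the data were seen, and peak strength was not matched. Veh scores of 300 or more were held by 9.26% of the remote members and 76.2% of the remote regions with all 4 peaks. Regions missing from only 1 of the LPS lists were also mostly weak and remote from a TSS, with few NF-kB motifs. When remote, 10.1% (missing from LPS) and 9.30% (missing from T0-LPS) of them carried C/EBP motifs, against 10.4% of members. For AP-1 these shares were 18.1% and 13.0%, against 12.5%. Mef2a, which encodes a MADS-box transcription factor, was the nearest protein-coding gene of 5 members, more than any other gene. The other 7 of the 12 regions with Veh and T0 peaks nearest to it kept a peak in all 4 lists.

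ATAC-seq reads where the Tn5 transposase can insert adaptors, so a peak marks DNA that is open in the cell population. The 16 libraries, of 50000 bone marrow-derived macrophages each, came from C57BL/6J mice, which were female and 8 to 10 weeks old per the study's methods, and formed 4 groups of 4 libraries from separately differentiated cultures. All cells were differentiated with L-cell conditioned medium and kept without serum for the last day, and on day 8 they received DMSO (Veh, LPS) or 500 nM T0901317 (T0, T0-LPS) for 3 h. Unstimulated cells were collected at that point. The other groups had LPS, a bacterial ligand of TLR4, added to the medium at 10 ng/mL for 2 h more, so stimulation and the longer time in culture cannot be told apart. The libraries of a group had been pooled before peak calling, so that each group is 1 peak list, no difference has a replicate check and no test was possible. Bone marrow cultures can hold other cells. A peak within 1 kb of a TSS was found for 9 of 10 macrophage genes in both unstimulated lists. It was found for 10 of 10 in both LPS lists (Csf1r lacked one in Veh and T0). Of T cell genes, 0 of 5 had one in any list. Of 5 genes each, B cells and neutrophils had 1 in every list, fibroblasts 2 in Veh, 1 in T0 and 0 after LPS, and epithelium 1, after LPS alone. All lists had been reduced beforehand to peaks at known macrophage enhancers, so these counts cannot show how many other cells were present. The part of other cells in the results was not tested.

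Members were found by merging peaks of the 4 lists that overlapped by at least 1 bp, which gave 37648 regions, and keeping those with a Veh and a T0 peak and no other. They made up 2.58% of all regions and 3.37% of the 28857 regions with a Veh and a T0 peak. Members were thus chosen by the presence of a peak in unstimulated cells and its absence after LPS, which is not a result. As background, 13.0% of all Veh peaks were missing from the LPS list and 17.7% from the T0-LPS list, while 5.05% of T0 peaks were missing from the LPS list and 7.86% from the T0-LPS list. For regions with both a Veh and a T0 peak, 1296 were missing from the LPS list. The members were 75.1% of these, and the other 323 had a peak in the T0-LPS list. Another 1122 regions had peaks in Veh, T0 and LPS and none in T0-LPS.

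Macrophage enhancers are opened by lineage-determining factors. PU.1, C/EBP, RUNX and AP-1 proteins bind together and displace nucleosomes, and other factors then bind the open DNA. LPS is sensed by TLR4, which releases NF-kB into the nucleus and activates AP-1 and IRF proteins and, through interferon, STAT proteins. LXR, the liver X receptor, binds with RXR to repeats of a nuclear receptor core sequence (AGGTCA), raises cholesterol efflux and lipid synthesis genes, and restrains inflammatory genes.

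The sequences of 8 members show what such regions look like. Given are the central 200 bp of the Veh peak, from the GRCm38 reference (the mm10 build of the files), with motif matches on either strand in capitals. The first 4 are among the strongest members by the score of their Veh peak, and the last 4 were chosen after their values were seen, as members near genes discussed in the results that hold a PU.1, RUNX or nuclear receptor match.
Mvb12b intron (chr2:33870423-33870622, + strand): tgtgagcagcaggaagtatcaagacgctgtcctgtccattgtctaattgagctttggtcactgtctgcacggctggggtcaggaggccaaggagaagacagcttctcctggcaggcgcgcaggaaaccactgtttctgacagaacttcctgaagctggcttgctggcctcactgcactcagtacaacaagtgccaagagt
Snx27 upstream (chr3:94612362-94612561, + strand): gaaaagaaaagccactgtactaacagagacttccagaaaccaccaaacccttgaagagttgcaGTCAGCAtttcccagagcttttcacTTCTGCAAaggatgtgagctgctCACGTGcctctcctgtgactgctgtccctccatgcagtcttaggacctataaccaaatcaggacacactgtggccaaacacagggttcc
Gmpr upstream (chr13:45455720-45455919, + strand): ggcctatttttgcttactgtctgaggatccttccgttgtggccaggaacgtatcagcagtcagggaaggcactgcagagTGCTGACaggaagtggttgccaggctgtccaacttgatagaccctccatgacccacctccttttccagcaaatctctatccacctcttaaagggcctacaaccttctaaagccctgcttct
Psd3 intron (chr8:67879404-67879603, + strand): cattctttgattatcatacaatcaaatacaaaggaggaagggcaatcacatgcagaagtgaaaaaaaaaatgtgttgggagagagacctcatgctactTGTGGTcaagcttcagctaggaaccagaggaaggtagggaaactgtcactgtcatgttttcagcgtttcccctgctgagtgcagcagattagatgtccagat
Adam17 intron (chr12:21369111-21369310, + strand): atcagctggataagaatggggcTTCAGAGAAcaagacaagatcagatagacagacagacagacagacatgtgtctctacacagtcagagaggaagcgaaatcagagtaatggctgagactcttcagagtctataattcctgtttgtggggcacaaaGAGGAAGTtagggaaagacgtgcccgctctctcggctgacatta
Fnip2 intron (chr3:79539731-79539930, + strand): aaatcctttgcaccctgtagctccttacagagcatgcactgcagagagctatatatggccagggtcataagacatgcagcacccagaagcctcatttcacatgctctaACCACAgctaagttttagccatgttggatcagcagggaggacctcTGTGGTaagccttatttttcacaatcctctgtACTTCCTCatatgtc
Mef2a upstream (chr7:67374046-67374245, + strand): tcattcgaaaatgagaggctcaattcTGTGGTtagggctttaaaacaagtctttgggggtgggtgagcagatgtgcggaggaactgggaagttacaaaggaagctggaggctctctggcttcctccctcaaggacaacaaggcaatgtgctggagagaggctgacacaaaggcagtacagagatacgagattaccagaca
Irf8 intron (chr8:120737349-120737548, + strand): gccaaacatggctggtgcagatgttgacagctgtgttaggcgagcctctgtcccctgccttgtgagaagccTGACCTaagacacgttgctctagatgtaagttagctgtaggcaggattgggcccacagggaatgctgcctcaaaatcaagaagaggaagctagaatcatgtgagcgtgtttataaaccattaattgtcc

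In these sequences the Snx27 member holds a MAF core site, a C/EBP site and an E-box, Gmpr a MAF core site, and Psd3 a RUNX site. The Mvb12b member, the strongest Veh peak among those named without room for a removed peak (explained below), holds no match to any motif searched. In the Adam17 intron there is a PU.1 site and a STAT site, and in the Fnip2 intron a PU.1 site lies beside 2 RUNX sites. Of the members shown near transcription factor genes, the one 1288 bp upstream of Mef2a has a RUNX site and that of Irf8 a nuclear receptor core site. The other members nearest to Mef2a held no RUNX match in their central 200 bp. A match describes the letters and does not show that a factor was bound.

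The members were weak, which the rule favours. A peak just above the calling threshold in Veh is more easily absent from another list, so this weakness is not read as an effect of LPS. Each list gives a score for every peak, which can be read only within its own list. The Veh score of the members had a median of 174 (range 34 to 1090), which lay at percentile 20.4 of the Veh list, whereas regions with a peak in all 4 lists had a median of 489. Other sets that lost a peak were weak too. The median Veh score was 150 in regions missing only from T0, 205 in those missing only from LPS and 208 in those missing only from T0-LPS, at percentiles 15.8, 25.9 and 26.5. In the T0 list the members' median score was 118, at percentile 10.7. Veh peaks of the members had a median width of 251 bp and T0 peaks of 208 bp, against 444 and 371 bp in regions with all 4 peaks. Of 246 regions with Veh and T0 peaks whose Veh score was under 100, 31.7% were members. That share was 22.6% at scores of 100 to 150, 15.3% at 150 to 200, 5.49% at 200 to 300 and 0.404% of the 20812 regions at 300 or more.

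**Figure D1:**
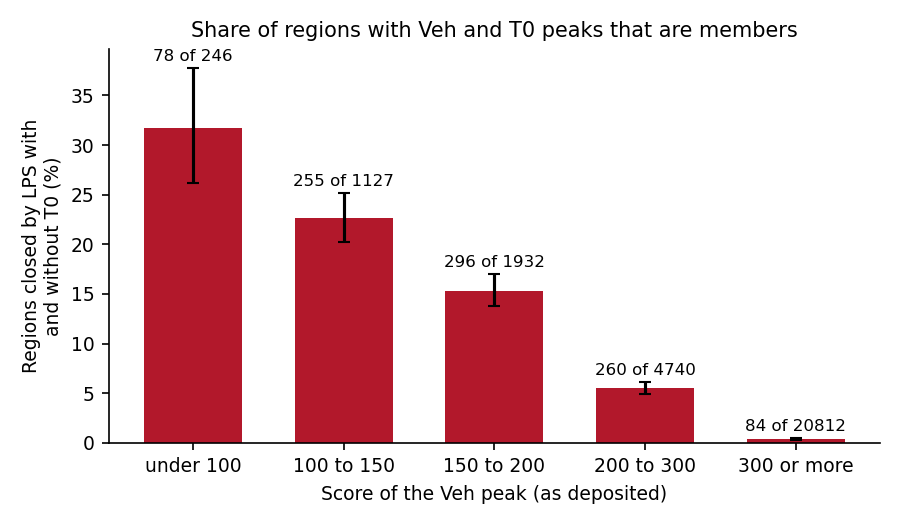
Share of regions with a Veh and a T0 peak that had no LPS or T0-LPS peak (vertical axis, %), by the score of the Veh peak as deposited (horizontal axis), with counts above the bars and Wilson 95% intervals. The share falls from 31.7% at scores under 100 to 0.404% at 300 or more. The rule favours weak peaks, so the fall is not read as an effect of LPS.

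Only 35 members (3.60%) reached the Veh list's median score of 372. Each list had been reduced to peaks at known macrophage enhancers, and the numbers in the peak names, which rise along each chromosome, show where called peaks were taken out. A member was said to have room in a list if the numbers of the peaks on either side of it there were not consecutive, so that a called and removed peak could lie at that place. Room was present among LPS peaks for 386 members (39.7%) and among T0-LPS peaks for 354 (36.4%), and 552 members (56.7%) had room in neither. Over all pairs of neighbouring peaks, 24.6% of LPS pairs and 22.6% of T0-LPS pairs had room. These are not like for like with the members' shares. Each pair counts once, while a member is a place and falls more easily between distant peaks. Of the 35 strongest members, 26 had room in both lists (74.3%, 95% interval 57.9 to 85.8), against 31.2% of the 938 below the median score. For the 552 without room, no peak number was missing at their place.

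The 5 strongest members all had room in both lists. They were nearest to Foxe3 (Veh score 1090, T0 score 771), which encodes a forkhead factor of the lens, Stk38l (867 and 571), a kinase, Ywhah (840 and 604), a 14-3-3 protein, Klf10 (720 and 599), a zinc finger factor, and Gpr157 (648 and 379), an orphan G protein-coupled receptor. All 5 lay between genes, at 8422 to 73329 bp from the nearest protein-coding TSS. Whether a removed LPS peak lay at these places was not tested.

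Without room in either list, the strongest member was in an intron of Mvb12b, a subunit of the ESCRT-I sorting complex, with a score of 470 in Veh and 231 in T0 (chr2:33870368-33870678). The next was 29746 bp upstream of Snx27, a sorting nexin of endosomal recycling (464 and 225). Scores of 452 and 281 were found in an intron of 1700064H15Rik. A region 51624 bp upstream of Gmpr, which encodes GMP reductase, had scores of 427 and 315. It was also the strongest member within 100 kb of Mylip, an LXR target that degrades the LDL receptor. These were followed by an intron of Psd3, an exchange factor for ARF6 (417 and 259), and by a region 40336 bp upstream of Cdkn2aipnl (393 and 217).

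Others of the 12 strongest members without room lay in introns. Cotl1, an actin-binding protein, had a member in an intron with scores of 393 in Veh and 306 in T0. Adam17, the protease that releases TNF from the cell surface, had one 4421 bp into the gene (386 and 236). The last 3 were in introns of Cttnbp2nl (369 and 199), Fnip2, a folliculin partner (366 and 256), and Fat3, a cadherin (366 and 143). All 12 kept a lower score in T0 than in Veh, but scores of separate lists are not on a common scale.

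The gap to the nearest LPS peak had a median of 2664 bp, and 292 of the 973 members had an LPS peak within 1000 bp (95% interval of the share 27.2 to 33.0%). Their nearest T0-LPS peak was a median of 2860 bp away. Just inside the rule were a member in Sqstm1, which encodes the autophagy receptor p62, with a T0-LPS peak 3 bp and an LPS peak 47 bp away, and members near Ak3 (33 and 64 bp) and Tmem229b (50 and 116 bp). Just outside it were regions near Ccn2, kept by an LPS peak of score 40, near Eef1akmt3, kept by a T0-LPS peak of score 43, and near Kcnk12, kept by an LPS peak of score 43.

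Position was not used to choose the members. A midpoint within 1 kb of a TSS was found for 163 of them (16.8%, 95% interval 14.5 to 19.2), against 43.1% of regions with all 4 peaks. Of the 1876 regions that lost their peak with T0 alone, meaning those with peaks in Veh, LPS and T0-LPS, 31.2% were at a TSS. Of the 1011 regions that LPS opened with and without T0, 18.3% were. Since the members were weak, the shares were also set side by side within bands of Veh score. At scores of 150 to 200 the share was 13.5% in members (10.1 to 17.9), 31.4% in regions closed by T0 alone (27.5 to 35.6) and 41.8% in regions with all 4 peaks (39.2 to 44.5). At 200 to 300 the 3 shares were 13.8%, 26.7% and 37.7%. Under 100 the intervals of the members (33.3%, 23.9 to 44.4) and of the other sets overlapped, and at 300 or more those of members and regions closed by T0 alone did. The regions missing only from LPS were closer to the members, at 22.6% overall (18.4 to 27.5), 23.3% at scores of 150 to 200 (15.1 to 34.2), 18.4% at 200 to 300 (12.4 to 26.5) and 10.7% at 300 or more, each interval overlapping that of the members. Those missing only from T0-LPS were at a TSS in 23.3% of cases (20.9 to 25.8). All such intervals cover counting error only.

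**Figure D2:**
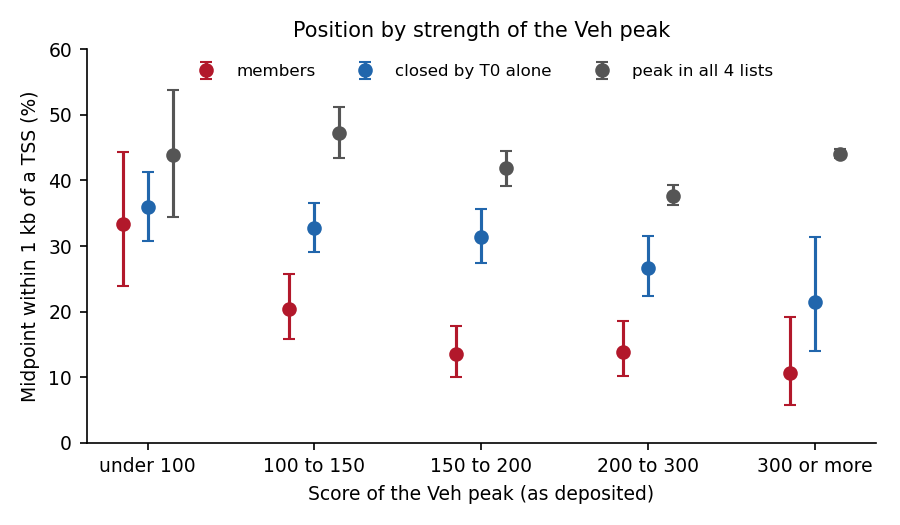
Share of regions with a midpoint within 1 kb of a TSS (vertical axis, %) by the score of the Veh peak (horizontal axis), for members, regions closed by T0 alone and regions with a peak in all 4 lists. Points are shares and bars Wilson 95% intervals, and members are the lowest of the 3 plotted sets in every band, from 33.3% at scores under 100 to 10.7% at 300 or more.

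Introns held 571 members (58.7%) and the space between genes 334 (34.3%), while 35 (3.60%) lay in untranslated regions. The distance to the nearest TSS had a median of 8551 bp in members and 2542 bp in regions with all 4 peaks. Once regions within 1 kb of a TSS were left out, these medians were 12601 and 11754 bp. GC content of the central 200 bp behaved in the same way. Its median was 50.0% in members and 53.5% in regions with all 4 peaks, but 49.2% and 49.0% further than 1 kb from a TSS. Members were found on every main chromosome but Y, at 2.35% of the Veh and T0 regions of X to 4.31% of those of chromosome 18.

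Another member was within 10 kb of 84 members (8.63%, 95% interval 7.03 to 10.6), against 4.17% of regions with all 4 peaks (3.93 to 4.42) and 4.05% of regions closed by T0 alone (3.25 to 5.04). Members close to each other count each other, so the 84 are not independent and the members' interval is too narrow. A median of 5 other regions lay within 50 kb of members, against 4 for regions with all 4 peaks and 5 for those closed by T0 alone. Neither this density nor the distance to a TSS was matched. Regions missing only from LPS had a member within 10 kb in 6.19% of cases (4.04 to 9.37), which overlaps the members' interval, those missing only from T0-LPS in 4.46% (3.40 to 5.83), and those with a Veh peak alone in 5.67% (4.89 to 6.57). A region that LPS opened lay within 50 kb of 13.2% of members (11.2 to 15.4) and of 12.7% of regions with all 4 peaks.

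Sequence motifs were compared mainly among regions further than 1 kb from a TSS, 810 of them members, because promoters differ in base composition. This restriction was chosen after the data were seen. It does not match peak strength, since 9.26% of remote members and 76.2% of remote regions with all 4 peaks had Veh scores of 300 or more. The NF-kB motif was present in 7 of these members (0.864%, 95% interval 0.419 to 1.77), in 3.55% of the equally remote regions with all 4 peaks (3.27 to 3.86), in 6.83% of those closed by T0 alone and in 25.5% of those opened by LPS. The low share was not particular to the members, being 1.21% in remote regions missing only from LPS (3 of 248), 0.814% in those missing only from T0-LPS and 0.671% in those with a Veh peak alone. Within every band of Veh score the members' share was the lower of the first 2, for example 0.781% against 5.12% at scores of 150 to 200 and 0.893% against 4.05% at 200 to 300. AP-1 sites (TGAGTCA) were found in 12.5% of members (10.4 to 14.9) and in 20.8% of regions with all 4 peaks (20.1 to 21.4). At scores of 200 to 300 these shares were 12.1% and 18.2%, whereas under 100 they were 11.5% and 11.3%. AP-1 sites were present in 18.1% of remote regions missing only from LPS (13.8 to 23.4), 13.0% of those missing only from T0-LPS and 15.2% of those with a Veh peak alone. The C/EBP motif (TTGCNNAA) was present in 10.4% of members (8.45 to 12.7), in 14.1% of regions with all 4 peaks (13.6 to 14.7) and in 20.3% of regions opened by LPS. It was present in 10.1% of remote regions missing only from LPS, 9.30% of those missing only from T0-LPS and 12.4% of those with a Veh peak alone. The C/EBP shares are not given by band of Veh score here.

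For motifs of RUNX and PU.1, factors that set up macrophage enhancers, the intervals of members and of regions with all 4 peaks overlapped. RUNX sites (TGTGGT) were found in 24.4% of the remote members (21.6 to 27.5) and 23.3% of remote regions with all 4 peaks (22.7 to 24.0). PU.1 sites (GAGGAAGT) were found in 11.9% (9.80 to 14.3) and 12.4% (11.9 to 13.0). In regions opened by LPS the PU.1 share was 6.67% (5.16 to 8.59). The nuclear receptor core sequence AGGTCA was present in 17.0% of members (14.6 to 19.8), 14.8% of regions with all 4 peaks (14.2 to 15.4), 12.5% of those closed by T0 alone and 13.0% of those opened by LPS. This core sequence was present in 18.1% of remote regions missing only from LPS, 13.4% of those missing only from T0-LPS and 13.5% of those with a Veh peak alone. Its repeat with a 4 bp spacer, the form LXR binds, was found in 2.72% of members and 2.22% of regions with all 4 peaks. The E-box CACGTG, a site of MiT/TFE and MYC family factors, was present in 6.17% of members (4.71 to 8.05) and 4.28% of regions with all 4 peaks (3.97 to 4.61). Its share was 5.24% in remote regions missing only from LPS, 5.58% in those missing only from T0-LPS (4.24 to 7.32) and 3.62% in those with a Veh peak alone. IRF motifs, a repeat of GAAA, were present in 2.84% of members and 4.22% of regions with all 4 peaks. MAF core sites (TGCTGAC) were present in 8.27% and 7.04%. The width of sequence searched, varied after the data were seen, changed part of this. In the central 100 bp of remote members and remote regions with all 4 peaks, AP-1 was present in 9.14% and 13.5%, and C/EBP in 5.56% (4.18 to 7.35) and 7.53% (7.12 to 7.96), intervals that overlapped. Over whole regions, which are wider in the regions with all 4 peaks, each of 8 motifs was less frequent in members, with overlapping intervals for MAF and the E-box. Among them were PU.1 at 13.8% and 17.3%, RUNX at 31.0% and 39.0%, and the nuclear receptor core sequence at 22.8% and 28.4%.

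**Figure D3:**
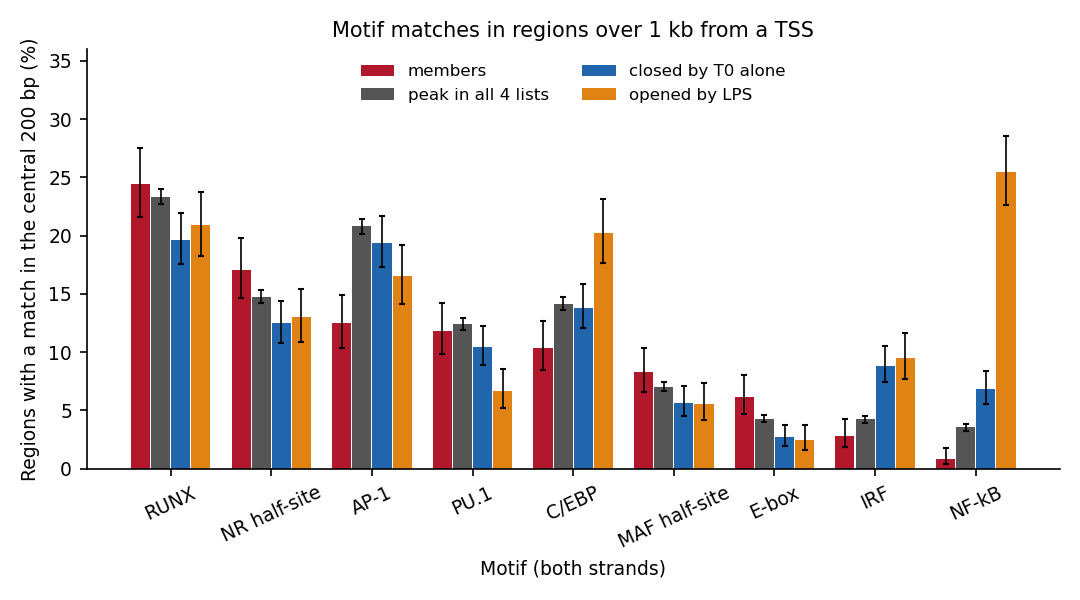
Share of regions further than 1 kb from a TSS with a motif match in the central 200 bp (vertical axis, %), for 9 motifs (horizontal axis) in members, regions with a peak in all 4 lists, regions closed by T0 alone and regions opened by LPS. Bars are shares with Wilson 95% intervals. NF-kB matches range from 0.864% of members to 25.5% of regions opened by LPS.

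With regions within 1 kb of a TSS included, the RUNX and PU.1 shares of the central 200 bp were higher in members than in regions with all 4 peaks, but over whole regions RUNX stood at 29.1% and 32.4% and PU.1 at 13.1% and 13.0%. In the central 200 bp RUNX was present in 23.2% of all 973 members, 16.9% of regions with all 4 peaks and 17.5% of all regions, PU.1 in 11.1%, 8.50% and 8.68%, and the nuclear receptor core sequence in 16.4%, 11.6% and 11.9%. NF-kB was present in 0.822%, 3.58% and 4.13%, AP-1 in 11.5%, 13.6% and 13.5%, and C/EBP in 10.2%, 10.3% and 10.8%. For the E-box the shares were 6.58%, 5.49% and 5.11%, for MAF 7.61%, 5.28% and 5.30%, for IRF 2.67%, 3.27% and 3.78%, and for the repeat with a spacer 2.36% of members and 1.89% of all regions. Of the 23 members with that repeat, 17 had an exact AGGTCA overlapping it, and 2 of the 74 with a MAF site had it overlapping an AP-1 site.

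The rule required a peak in T0 as well as in Veh but not how strong. Ranked within its list, the T0 peak stood lower than the Veh peak in 772 members (79.3%, 95% interval 76.7 to 81.8) and in 76.7% of regions with all 4 peaks. The T0 list was the shortest of the 4 lists, and when every list was shortened to an equal number of its strongest peaks only 42.5% of the members so defined ranked lower in T0. No direction is therefore read from this share. Percentiles differed most, with Veh the higher, at a Veh peak of 1007 bp at the start of Akap17b (Veh score 601, T0 score 118), upstream of Siglece, an inhibitory receptor for sialic acids (294 and 78), and 35458 bp from Prps1, which encodes an enzyme of nucleotide synthesis (290 and 83). They differed most, with T0 the higher, in introns of Slc16a10, a transporter of aromatic amino acids (124 and 206), and Kcnj6, a potassium channel (165 and 235), and near Gm2174 (225 and 296). No change is read from these values either.

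The members were spread over many genes. A total of 869 protein-coding genes were nearest to at least 1 member, 781 of them to exactly 1 and 75 to a pair. At Mef2a, 5 of the 12 regions with Veh and T0 peaks nearest to it were members, all upstream of the TSS at 1288 to 90973 bp, and none had room in an LPS list. Their Veh scores were 200, 194, 236, 183 and 215 in order of distance, and their T0 scores 98, 122, 83, 112 and 178. The other 7 regions kept a peak in all lists, including the one at 342 bp upstream, whose score was 732 with vehicle, 626 with T0, 569 with LPS and 501 with both agents. The member closest to Mef2a thus lay beside a promoter peak that was present in every group.

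**Figure D4:**
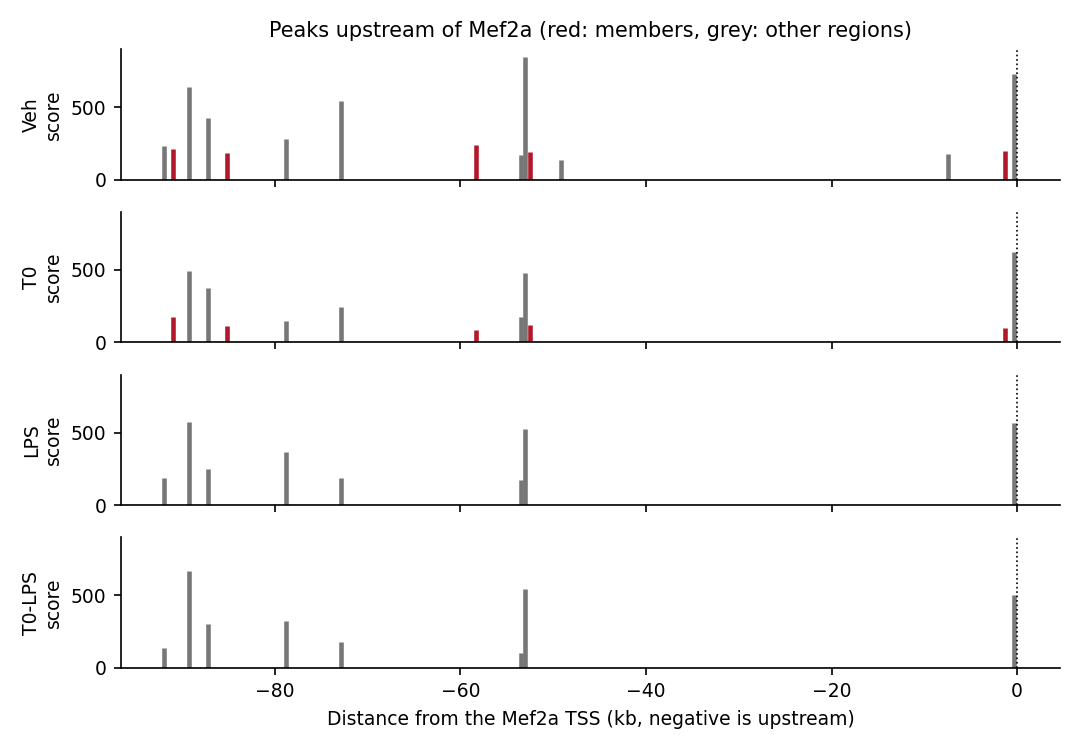
Peaks upstream of Mef2a in the 4 lists, by distance from its TSS (horizontal axis, kb) and deposited score (vertical axis, a scale particular to each list). Members, in red, have Veh scores of 183 to 236 and no LPS or T0-LPS peak, while regions in grey, such as the one 342 bp upstream, hold other combinations of peaks.

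Irf2bpl, which encodes a nuclear protein related to IRF2-binding proteins, had 4 members among its 13 regions, with Veh scores of 142 to 318, and 3 of these had no room. A further 11 genes had 3 each, and those named here were among the highest of them by summed Veh score. For Npy, which encodes neuropeptide Y, these were 3 of 6 regions, 2 without room, and for Cerk, the ceramide kinase, 3 of 6, all 3 without room. Abcc1, an exporter of leukotriene C4, had 3 of 10 and Jun, a subunit of AP-1, 3 of 12, at 110292 to 160940 bp from the TSS. Tns3, a tensin of focal adhesions, had 3 of 24, and Armc2 3 of 8. All members of Abcc1, Jun, Tns3 and Armc2 had room in at least 1 LPS list. Cited2, a partner of CBP and p300, had 3 of 31, 2 without room. One lay 863 bp upstream of its TSS and another over 1 Mb away. Distance to the nearest TSS does not show which gene a region acts on.

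Genes of 11 lists were examined for members within 100 kb, and 59 of their 224 genes had one. This was 26.3%, against 11.6% of all protein-coding genes and 15.0% of 20 housekeeping genes. Neighbouring genes can share a member, as the 6 LPS-induced genes with one shared 5 members, so genes are not separate counts. The genes of the lists also differ in how many peaks surround them. Members were therefore counted among the regions with Veh and T0 peaks near each list. These shares are to be read beside the 3.37% for all such regions. Near macrophage lineage factors, 11 of 173 regions were members (6.36%, 95% interval 3.59 to 11.0), 5 of them those of Mef2a. Near the other lineage factors the share was 6 of 161 (3.73%, 1.72 to 7.89). The remaining lists with a higher share were lysosomal genes (8 of 167, 4.79%), homeostatic and clearance receptors (8 of 182, 4.40%), cell cycle genes (6 of 141, 4.26%), LXR targets (5 of 119, 4.20%), nuclear receptors and repressors (6 of 162, 3.70%) and adhesion and chemotactic receptors (6 of 176, 3.41%). Lower shares were found for LPS-induced inflammatory genes (5 of 208, 2.40%), housekeeping genes (3 of 196, 1.53%) and TLR4 signalling (1 of 153, 0.654%). The intervals of these lists but the lineage factors included 3.37%. Regions that LPS opened with and without T0 were 1011 of all 37648 regions (2.69%). Near the 30 inflammatory genes there were 24 of them, against 2 to 10 near each other list, of 18 to 22 genes. Their share of the regions near a list was not computed, so no enrichment is read from these counts.

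**Figure D5:**
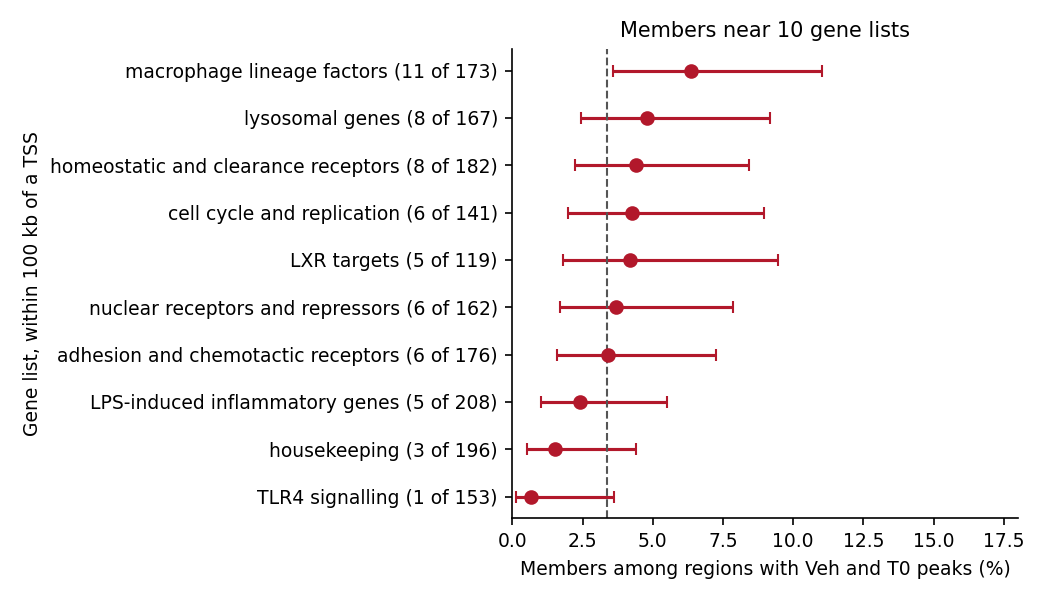
Share of regions with Veh and T0 peaks within 100 kb of a listed gene's TSS that were members (horizontal axis, %), for 10 gene lists (vertical axis) with Wilson 95% intervals. The dashed line marks 3.37%, the share among all such regions, and the intervals of 9 lists cross it.

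Among lineage factors, Irf8, which directs monocyte and dendritic cell fate, had a member in an intron, 1091 bp from the TSS, with scores of 92 in Veh and 72 in T0 (chr8:120737328-120737569). A stronger one stood 51016 bp upstream (288 and 150), in an intron of Gm20388 and nearest to Emc8. Fli1, an ETS factor, had 2 members within 100 kb, and Runx1 and Csf1r, the receptor for M-CSF, had 1 each. The Irf8 members had no room in either LPS list.

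Among receptors of resting and clearing macrophages, the strongest member was in Mrc1, the mannose receptor, 15410 bp from its TSS (480 in Veh, at percentile 61.5, and 277 in T0), with room in both LPS lists. Trem2, a lipid-sensing receptor, had a member on either side, with Veh scores of 108 and 100 and T0 scores of 103 and 128. The first of these, 4339 bp upstream, had room in both LPS lists. Itgam, which encodes CD11b, had one at its TSS (chr7:128062514-128062771, 173 and 138) without room, but an LPS peak lay 506 bp and a T0-LPS peak 536 bp away, and all 4 lists had a peak within 1 kb of its TSS. Cxcr4 had one 856 bp upstream (74 and 42), with room in the LPS list and an LPS peak 306 bp away. Its T0 peak stood at percentile 0.0218 of the T0 list. The strongest member near an adhesion or chemotactic receptor was 30263 bp upstream of Ccr2, the receptor for CCL2 (279 and 170), without room.

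At Apoe, an LXR target that carries lipid out of the cell, a member lay over the start of the gene (chr7:19698951-19699263) with scores of 133 in Veh and 92 in T0, no room, and an LPS peak 420 bp away. Gpnmb, a glycoprotein of lysosomes, had members 8291 bp (218 and 212) and 644 bp (152 and 93) upstream, both without room. Near Ctsl, which encodes cathepsin L, the strongest had scores of 238 and 148 and had room in both LPS lists.

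Of 30 genes that LPS induces, 6 had a member within 100 kb, and the interval of their share of regions (1.03 to 5.50%) included the 3.37% of all such regions. At the chemokine genes Ccl2 and Ccl7, members lay 2736 bp upstream of Ccl2 (135 and 86) and 172 bp upstream of Ccl7 (94 and 104), the latter with room in both LPS lists. The strongest in this group was 53453 bp from Ccl3 (231 and 121), near Ccl6. The only member near a TLR4 signalling gene was 17283 bp from Tirap, an adaptor of TLR4 (118 and 83). Of cell cycle genes, Ccnd1, which encodes cyclin D1, had a member with scores of 128 and 88 and room in the T0-LPS list. Mcm5, a subunit of the replicative helicase, had one 824 bp upstream (173 and 156). The strongest in this group was 88038 bp from Cdkn1b, a cyclin-dependent kinase inhibitor (221 and 127). Klf6, a zinc finger factor, had the strongest among nuclear receptors and repressors (256 and 200), with room in both lists. Near Rplp0, a ribosomal protein gene, the strongest had scores of 233 and 122 and room in the LPS list.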

How the data were processed

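ATAC-seq of 16 macrophage libraries was deposited as 4 peak lists, 1 per group. Per the study's methods, the authors trimmed reads with cutadapt, aligned them with Bowtie2 (mm10 per the labels), removed duplicates with SAMtools, pooled the 4 libraries of each group to call peaks with MACS2 (q 0.001, shift 88, extension 177), and kept peaks at H3K27ac or H3K4me2 enhancers of other macrophages. The deposited lists give position, name and a score, whose scale no header states (its values look like 10 times -log10 q). It grows with depth, so it was ranked within a list, and the depth per library is unknown.

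Peaks were merged and annotated in Python 3.11.15 with numpy 2.4.6, using GENCODE vM21 basic for genes and TSSs and GRCm38.p6 for sequence. All main-chromosome peaks ended within its chromosomes. Motifs were scanned on both strands in the central 200 bp of the highest-scoring Veh peak. In regions without a Veh peak, such as those opened by LPS, the highest-scoring peak of any list was used. NF-kB, MEF2, CTCF and IRF were consensus strings, and the nuclear receptor repeat allowed 2 mismatches. The other motifs searched were KLF (GGGTGTGG), SP (GGGCGG), CRE (TGACGTCA) and STAT (TTCNNNGAA). They were found in 2.77%, 10.5%, 0.411% and 5.96% of members, with MEF2 in 1.44% and CTCF in 0.925%, against 2.63%, 24.2%, 1.10%, 5.44%, 0.872% and 0.877% of all regions. Shares have Wilson 95% intervals. The steps were tested on simulated data. Named members were the 12 strongest without room, the 5 strongest of all, those nearest the 10 genes with most members, those within 10 kb of listed genes with each list's strongest within 100 kb, 3 on either side of the rule, and 3 with the largest change of rank each way. Members and gene lists were chosen with earlier results of these data known. Each sample's group came from its label. The results of 1 gene and 1 gene list are not reported here.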

Additional observations from a re-analysis of the deposited data

How the results depend on the processing

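No paired analysis was possible because the numbered libraries of each group had been pooled into 1 list, and for the same reason no library could be left out. Of 73 values of 11 results under other settings, 46 stayed within the interval of the reported value, or within 1.5 times a count, and 27 moved.

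With a reciprocal overlap of 50% between peaks, members were 4.33% of regions with Veh and T0 peaks, 22.3% lay within 1 kb of a TSS and 2.08% had an NF-kB motif. With lists of equal length the share of members was 3.88%, and 42.5% ranked lower in T0. With Veh scores at or above the median, 35 members remained (0.198%), of which 8.57% lay within 1 kb of a TSS. In these, AP-1 was found in 8.57%, PU.1 in 14.3%, C/EBP in 20.0% and NF-kB in 0 of 35, 85.7% ranked lower in T0, and 2 listed genes had one within 100 kb. Without room in either LPS list, 552 members remained (1.91%). A TSS window of 500 bp held 11.0%, and a gene window of 10 kb gave 14 genes. In the whole region, AP-1 was found in 14.5%, C/EBP in 14.7% and the nuclear receptor core sequence in 21.7%. In the central 100 bp the shares were 8.43% for AP-1, 7.30% for PU.1, 5.65% for C/EBP, 0.308% for NF-kB and 9.56% for the nuclear receptor core sequence, against 8.66%, 5.11%, 5.42%, 1.70% and 5.95% in regions with all 4 peaks, so that with promoters included the lower AP-1 and C/EBP shares of members were not seen there. Restricted, after seeing the data, to members further than 1 kb from a TSS, median GC was 49.2%.

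Whole regions are wider in regions with all 4 peaks. There the order turned for the nuclear receptor core sequence (21.7% in members, 26.3% in regions with all 4 peaks), RUNX (29.1% and 32.4%), the E-box (8.32% and 12.2%) and MAF (10.5% and 10.7%). For NF-kB these were 1.03% and 8.94%. Unknown depth limits every absence from a list.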
